A study of Mus musculus with 4 samples.

Results

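The 10 genes described here encode transcription factors of the naive pluripotent state: Nanog, Esrrb, Tfcp2l1, Klf2, Klf4, Klf5, Nr0b1, Prdm14, Tbx3 and Zfp42. Their probe sets were found by annotation, as every probe set assigned to 1 gene where that gene was one of the 10. This gave 21 probe sets out of 34945 that named 1 gene. All 10 genes had at least 1 probe set bright enough to test, among 10916 genes tested in all. A probe set is a group of short probes read together as 1 signal, and signals are given in the linear units of the MAS5 software, for line 1 and then line 2 of each group.

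Transcripts were measured in 4 mouse embryonic stem cell lines with 1 Affymetrix Mouse Genome 430 2.0 array each. The first group comprised 2 lines labelled UTX conditional knockout (cKO) and the second 2 lines labelled UTX knockout (KO). UTX is the product of Kdm6a, an X-linked gene for a demethylase of lysine 27 on histone H3. All 4 lines had been grown on irradiated fibroblasts in medium with 15% serum and 1000 u/ml LIF, then passaged 2 times on 0.1% gelatin. The labels do not give the strain, the deleted part of Kdm6a or whether a KO line was made from the cKO line of the same number. With 1 array per line, the p-values below measure the spread between these arrays, which may in part be technical.

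Mouse embryonic stem cells in LIF and serum resemble the preimplantation epiblast, and the naive factors form a densely connected network that holds them in that state. LIF acts through STAT3 on Klf4, Tfcp2l1 and other members, Wnt signaling relieves repression of Esrrb, Nanog, Klf2 and Tfcp2l1 by TCF7L1, and ERK signaling downstream of FGF4 opposes several of them. Transcripts of Nanog, Esrrb, Tbx3, Prdm14 and Zfp42 are known to vary from cell to cell in serum cultures. In a signal from a whole culture, fewer cells with a transcript and less of it per cell cannot be told apart.

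Of the 10 genes, 7 had an entry in the promoter sequences (RefSeq, GRCm38.p6), in 9 windows. The 250 bases before each annotated start were searched on both strands for 6 motifs. The promoters of Nanog, Zfp42 and Tfcp2l1 held matches and are shown, Nanog at the more upstream of its 2 starts. Capitals mark matches to the octamer core TTTGCAT, bound by OCT4, or to GGGNGTGG, bound by KLF factors.
Nanog, chr6:122707239-122707488, plus strand: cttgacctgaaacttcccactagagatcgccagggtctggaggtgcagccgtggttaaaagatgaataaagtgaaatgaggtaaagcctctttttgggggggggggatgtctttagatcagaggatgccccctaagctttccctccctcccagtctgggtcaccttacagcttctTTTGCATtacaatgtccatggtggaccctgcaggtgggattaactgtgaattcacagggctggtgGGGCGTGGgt
Zfp42, chr8:43307010-43307259, minus strand: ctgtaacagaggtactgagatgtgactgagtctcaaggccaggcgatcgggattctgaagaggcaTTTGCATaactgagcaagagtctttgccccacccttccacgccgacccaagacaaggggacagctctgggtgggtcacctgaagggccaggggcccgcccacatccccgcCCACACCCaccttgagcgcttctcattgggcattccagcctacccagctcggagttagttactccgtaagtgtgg
Tfcp2l1, chr1:118627695-118627944, plus strand: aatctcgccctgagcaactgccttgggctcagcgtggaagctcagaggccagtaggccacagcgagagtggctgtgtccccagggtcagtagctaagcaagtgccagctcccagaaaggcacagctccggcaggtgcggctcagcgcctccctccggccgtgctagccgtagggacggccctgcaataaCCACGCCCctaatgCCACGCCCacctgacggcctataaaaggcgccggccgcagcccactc
The Nanog window held the octamer core 75 to 69 bases before the start and a KLF match at 10 to 3. In the Zfp42 window the octamer core lay at 185 to 179 and a KLF match, on the opposite strand, at 75 to 68. Tfcp2l1 carried KLF matches on the opposite strand at 61 to 54 and at 47 to 40 bases before its start. Over all 32851 windows of this length, 4.12% held the octamer core and 15.9% the KLF sequence. No member window held TCAAGGTCA (ESRRB), TTCCNGGAA (STAT), GGTCTCTAA (PRDM14) or AGGTGTGA (T-box). Those occurred in 0.387%, 0.913%, 0.24% and 1.12% of all windows. These matches describe letters, not binding.

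Kdm6a itself read 658 and 415 in cKO and 265 and 198 in KO (log2 fold change -1.17, SE 0.27, limma adjusted p = 0.0884), which missed the threshold of 0.05. With arrays centred on their median it passed in limma (-1.22, adjusted p = 0.00915), and averaging its probe sets gave -0.57 (adjusted p = 0.522). Log2 fold changes were -1.50 without cKO line 2, -1.38 without KO line 1, -0.97 without KO line 2 and -0.84 without cKO line 1. The embryonic stem cell markers Pou5f1, Sox2, Sall4, Utf1 and Tdgf1 were bright on every array, with summed signals of 47238 and 50753 in cKO and 49430 and 49868 in KO. Of 11 fibroblast markers with a named probe set, the summed signal was 3384 and 2257 in cKO against 1330 and 1389 in KO. By their mean over the arrays 7 of the 11 passed the filter on low signal. All 7 were negative, with a median log2 fold change of -1.23. In 6 both KO values lay below both cKO values, as in 2314 of all 10916 genes tested. The 2 called as lower in KO were the collagen gene Col5a1 (-1.43, limma adjusted p = 0.0295) and Thy1 (-1.20, limma adjusted p = 0.0483). Both calls were lost in limma without a filter (adjusted p = 0.0739 and 0.112) and with probe sets averaged (adjusted p = 0.0563 and 0.0566). With 1 array left out, Col5a1 ran from -1.64 to -1.22 and Thy1 from -1.38 to -1.03.

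The sum of 8 primitive endoderm markers was 3520 and 2357 in cKO and 1482 and 1269 in KO. Most of it came from Col4a1, a basement membrane collagen that fibroblasts also make, which read 2373 and 1568 in cKO and 848 and 892 in KO. Col4a1 fell (-1.15, limma adjusted p = 0.0483), and its value was -0.85 without cKO line 1. The call was lost in limma without a filter (adjusted p = 0.0709), with quantile normalization (adjusted p = 0.0515) and with probe sets averaged (adjusted p = 0.15). Dab2, an endocytic adaptor, read 618 and 399 in cKO and 222 and 169 in KO (-1.34, limma adjusted p = 0.0576). Gata4, Gata6, Sox17, Sox7, Pdgfra and Foxa2 lay below the filter by their mean, with a highest signal on any array of 125, for Gata6 in cKO line 1. The sum of 6 trophoblast markers was 1880 and 1145 in cKO and 2676 and 1727 in KO. Of these Tfap2c, a gene also active in naive cells (0.79, adjusted p = 0.312), Eomes (-0.63, adjusted p = 0.606) and Hand1 (0.30, adjusted p = 0.708) were tested in limma, and none passed. Cdx2, Elf5 and Gata3 lay below the filter, Cdx2 reaching 141 in cKO line 1. The part of other cells in the results below was not tested.

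Read as a group, 9 of the 10 naive factors stood higher in KO than in cKO, and Tbx3 stood lower. Prdm14 differed most, 3.04-fold by the mean signals, followed by Tfcp2l1 (2.29-fold), Esrrb (1.89-fold), Nr0b1 (1.85-fold) and Klf4 (1.79-fold). For 7 genes both KO values lay above both cKO values, namely Prdm14, Tfcp2l1, Esrrb, Nr0b1, Klf4, Zfp42 and Klf5, where 21.4% of all genes tested were higher in that way. The median log2 fold change of the 10 was 0.78, against 0.01 over all genes. In limma none of the 10 passed an adjusted p of 0.05, where 0.632% of all genes passed as higher and 1.57% as lower. At an unadjusted p under 0.05 there were 6, all higher in KO, against 5.92% of all genes. Without cKO line 1 limma passed 7 of them, all higher in KO, where 2.09% of all genes passed in either direction. Without KO line 2 it passed 5, all higher, where 2.99% of all genes did. Without KO line 1 it passed 3 as higher and Tbx3 as lower, where 3.96% of all genes did, and without cKO line 2 it passed none, where 2.39% did. The median was 0.44 without cKO line 2. Each of these fits left 1 array in a group and 1 residual degree of freedom. Leaving out cKO line 1 left cKO line 2, the lowest array for the 9 higher genes, which necessarily raised their differences. Leaving out KO line 2 left KO line 1, the highest array for 8 genes, which raised theirs too. The counts passing, by gene here and by probe set below, thus depend on the array left out and do not test the difference again.

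**Figure D1:**
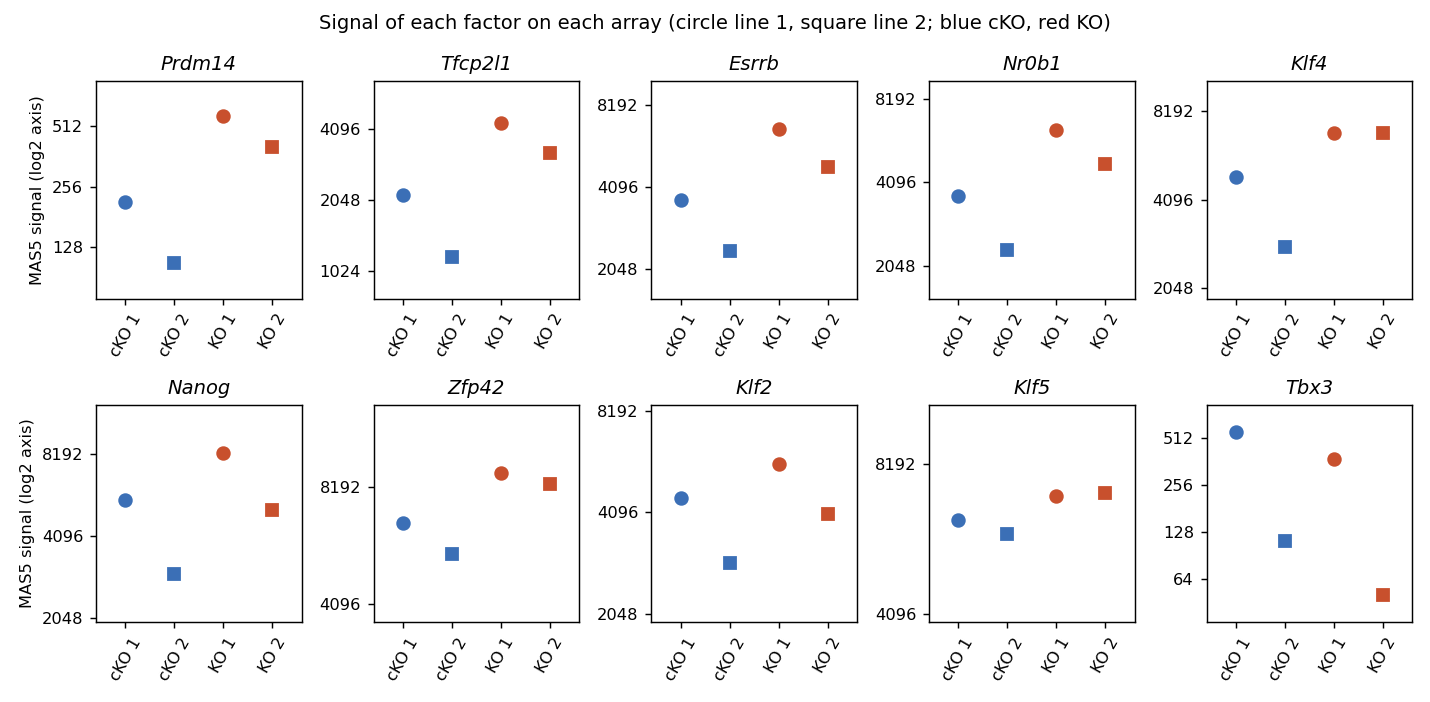
MAS5 signal on a log2 axis for the brightest probe set of each of the 10 factors, 1 point per array, circles for line 1 and squares for line 2, blue for cKO and red for KO. In 9 panels cKO line 2 is the lowest point, and in the panel of Tbx3 the lines numbered 1 lie above the lines numbered 2.

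Prdm14 encodes a zinc finger protein that represses de novo DNA methyltransferases and FGF receptors in stem cells and is needed for germ cells. It has 1 probe set here, which read 214 and 107 in cKO and 571 and 402 in KO. Both KO lines stood above both cKO lines, and the smallest gap, between KO line 2 and cKO line 1, was 0.90 on the log2 scale. The log2 fold change was 1.63 (95% interval 0.82 to 2.45, limma adjusted p = 0.069). Means (± SD over n = 2 lines) were 160 ± 75.9 for cKO and 487 ± 119 for KO, and cKO line 2 lay near the filter level of 77.7, below which genes were not tested. The log2 fold change depended on the arrays, at 2.12 without cKO line 1 and 1.88 without KO line 2. Without KO line 1 it was 1.38, and without cKO line 2 it was 1.15.

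Tfcp2l1 encodes a grainyhead-family factor that carries the LIF and Wnt inputs into the naive network. Its bright probe set read 2141 and 1169 in cKO and 4342 and 3239 in KO. The groups did not overlap, and within each group line 1 was the higher. Means (± SD over n = 2 lines) were 1655 ± 687 for cKO and 3791 ± 780 for KO. The log2 fold change was 1.24 (95% interval 0.57 to 1.92, limma adjusted p = 0.0889). The other 2 Tfcp2l1 probe sets never exceeded 19.3 and were not tested. Averaging all 3 probe sets on the log scale gave 0.45 (adjusted p = 0.764). The bright probe set gave 1.68 without cKO line 1 and 1.45 without KO line 2. It gave 1.03 without KO line 1 and 0.81 without cKO line 2.

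Esrrb and Nr0b1 followed each other closely. Esrrb, an orphan nuclear receptor that can stand in for Nanog, read 3681 and 2392 in cKO and 6669 and 4835 in KO. Nr0b1, the X-linked gene for DAX1, a nuclear receptor without a classical DNA-binding domain, read 3651 and 2339 in cKO and 6342 and 4767 in KO. In both genes KO line 1 was highest and cKO line 2 lowest, with no overlap between the groups. Centred on their own means, the log2 profiles of the pair over the 4 arrays differed by a root mean square of 0.02, the smallest distance between any 2 of the 10. The log2 fold changes were 0.94 (95% interval 0.38 to 1.49, limma adjusted p = 0.115) for Esrrb and 0.91 (95% interval 0.37 to 1.46, limma adjusted p = 0.119) for Nr0b1. Without cKO line 1 the values were 1.25 for Esrrb and 1.23 for Nr0b1, and without KO line 2 they were 1.17 and 1.12. Without cKO line 2 they were 0.62 and 0.59, and without KO line 1 both were 0.70.

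Esrrb has 2 further probe sets. One read 650 and 333 in cKO and 1375 and 903 in KO, a log2 fold change of 1.25 with no overlap. The other read 157 and 45.0 in cKO and 241 and 110 in KO, a log2 fold change of 0.91 with overlapping groups. All 3 probe sets thus put the arrays in similar order and the KO mean above the cKO mean.

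The 3 Krüppel-like factors, which bind related GC-rich sites and can replace each other in stem cells, had log2 fold changes of 0.89, 0.41 and 0.22 whose intervals overlap. Klf4 read 4890 and 2824 in cKO and 6934 and 6895 in KO. Its KO lines were nearly equal while its cKO lines were 1.73-fold apart. The log2 fold change was 0.89 (95% interval 0.34 to 1.45, limma adjusted p = 0.13). A second Klf4 probe set read 1787 and 879 in cKO and 2528 and 1971 in KO, also without overlap. For the brighter Klf4 probe set the value was 1.29 without cKO line 1 and 0.89 without KO line 1. It was 0.90 without KO line 2 and 0.50 without cKO line 2.

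Klf2, whose protein is destabilised by ERK signaling, read 4507 and 2900 in cKO and 5687 and 4046 in KO. The groups overlapped, since KO line 2 lay below cKO line 1. Its log2 fold change was 0.41 (95% interval -0.16 to 0.97, limma adjusted p = 0.549). Klf5, which also acts in trophectoderm, was the most even of the 10, at 6320 and 5917 in cKO and 7065 and 7163 in KO. Its groups did not overlap, but the log2 fold change was 0.22 (95% interval -0.02 to 0.46, limma adjusted p = 0.421). A dimmer Klf5 probe set read 380 and 326 in cKO and 442 and 382 in KO, again at 0.22, and the third reached at most 40.5. Outside these 3, another 12 Klf genes were tested. None of the 12 passed in limma, 6 were positive and their median was 0.01. The smallest p-values among them were those of Klf7 (-0.65, adjusted p = 0.0962) and Klf12 (0.70, adjusted p = 0.318).

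Nanog, the homeodomain factor that sustains self-renewal, read 5533 and 2969 in cKO and 8237 and 5077 in KO. KO line 2 lay below cKO line 1, so the groups overlapped. The log2 fold change was 0.67 (95% interval -0.08 to 1.43, limma adjusted p = 0.427). Means (± SD over n = 2 lines) were 4251 ± 1813 for cKO and 6657 ± 2234 for KO. The difference between line 1 and line 2, averaged over both groups, was larger, at 0.80. The log2 fold change of Nanog was 1.12 without cKO line 1 and 1.02 without KO line 2. It was 0.22 without cKO line 2 and 0.32 without KO line 1.

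Zfp42, known as Rex1, encodes a zinc finger protein widely used as a reporter of the naive state. It read 6622 and 5502 in cKO and 8873 and 8312 in KO. The groups were apart and the lines within each group close together. The log2 fold change was 0.51 (95% interval 0.22 to 0.80, limma adjusted p = 0.102). It was 0.64 without cKO line 1, and 0.37 to 0.56 with any other array left out.

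**Figure D2:**
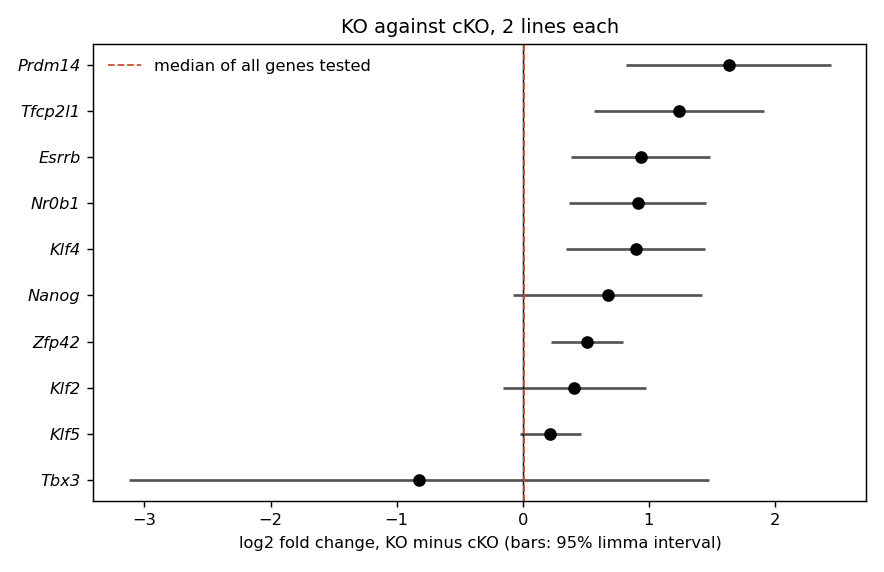
Log2 fold change of KO minus cKO for the 10 factors (points) with 95% limma intervals (bars), 2 lines per group. The interval lies above 0 for 6 genes, from Prdm14 at 1.63 to Zfp42 at 0.51, and spans 0 for Nanog, Klf2, Klf5 and Tbx3.

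Tbx3, a T-box repressor tied to LIF signaling and to the endoderm lineage, departed from the other 9. It read 559 and 111 in cKO and 375 and 50.2 in KO. The lines numbered 1 were high and those numbered 2 low in both groups, 5.03-fold apart in cKO and 7.46-fold apart in KO. Means (± SD over n = 2 lines) were 335 ± 317 for cKO and 212 ± 229 for KO. The log2 fold change between the groups was -0.82 (95% interval -3.13 to 1.48, limma adjusted p = 0.806). Its sign followed the arrays included, with 0.32 without cKO line 1 and 0.57 without KO line 2. The value was -2.22 without KO line 1 and -1.96 without cKO line 2.

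A second Tbx3 probe set read 358 and 75.3 in cKO and 253 and 55.8 in KO, the same order of arrays. The remaining 3 reached at most 41.7 on any array and were not tested. Line number accounted for 89.6% of the variation of Tbx3 between the 4 arrays, and the group for 9.47%. Its mean log2 difference between line 1 and line 2, at 2.53, was the largest of all 10916 genes tested, and it ranked 1 also with a pseudocount of 1 (2.60) and with the 25th percentile of all values as pseudocount (2.34). KO line 2 lay below the filter level of 77.7, so the size of the difference is uncertain. Among the endoderm markers, Dab2, Gata6, Gata4, Sox17, Sox7 and Foxa2 also read higher in line 1 than in line 2 of both groups. All of these but Dab2 lay below the filter. The median signal of all probe sets was also higher in line 1 (76.6 in cKO and 81.6 in KO) than in line 2 (64.4 and 64.9). Of all genes tested, 37.3% read higher in line 1 in both groups. Col4a1, the brightest of the endoderm markers, went the other way within KO (848 and 892). Pdgfra went the other way within cKO (74.2 and 81.9). Gata6 read 125 and 76.9 in cKO and 90.2 and 35.4 in KO, and Gata4 read 104 and 75.1 in cKO and 84.2 and 40.2 in KO. The summed fibroblast signal was higher in line 1 within cKO and lower in line 1 within KO. The part of such cells in the Tbx3 values was not tested.

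The line number also went with the other factors, though less. In 9 of the 10 genes line 1 read above line 2 in both groups, Klf5 being the exception, and 37.3% of all genes tested did so. The median log2 difference of line 1 minus line 2 was 0.72 for the 10 within cKO and 0.44 within KO, against 0.00 and 0.02 over all genes. For Nanog and Klf2, as for Tbx3, the share of variation by line number (57.8% and 64.9%) exceeded that by group (41.3% and 34.0%). In the other 7 the group had the larger share, from 71.9% in Klf4 to 91.0% in Klf5. The lowest array was cKO line 2 for 9 genes and the highest was KO line 1 for 8, where these arrays were lowest for 26.4% and highest for 29.6% of all genes. Of the 3 trophoblast markers tested, Tfap2c read 1346 and 766 in cKO and 2186 and 1412 in KO, and Eomes 220 and 151 in cKO and 175 and 76.3 in KO, both with line 1 the higher, whereas Hand1 read 121 and 128 in cKO and 165 and 145 in KO. The labels do not say what the lines of 1 number share.

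**Figure D3:**
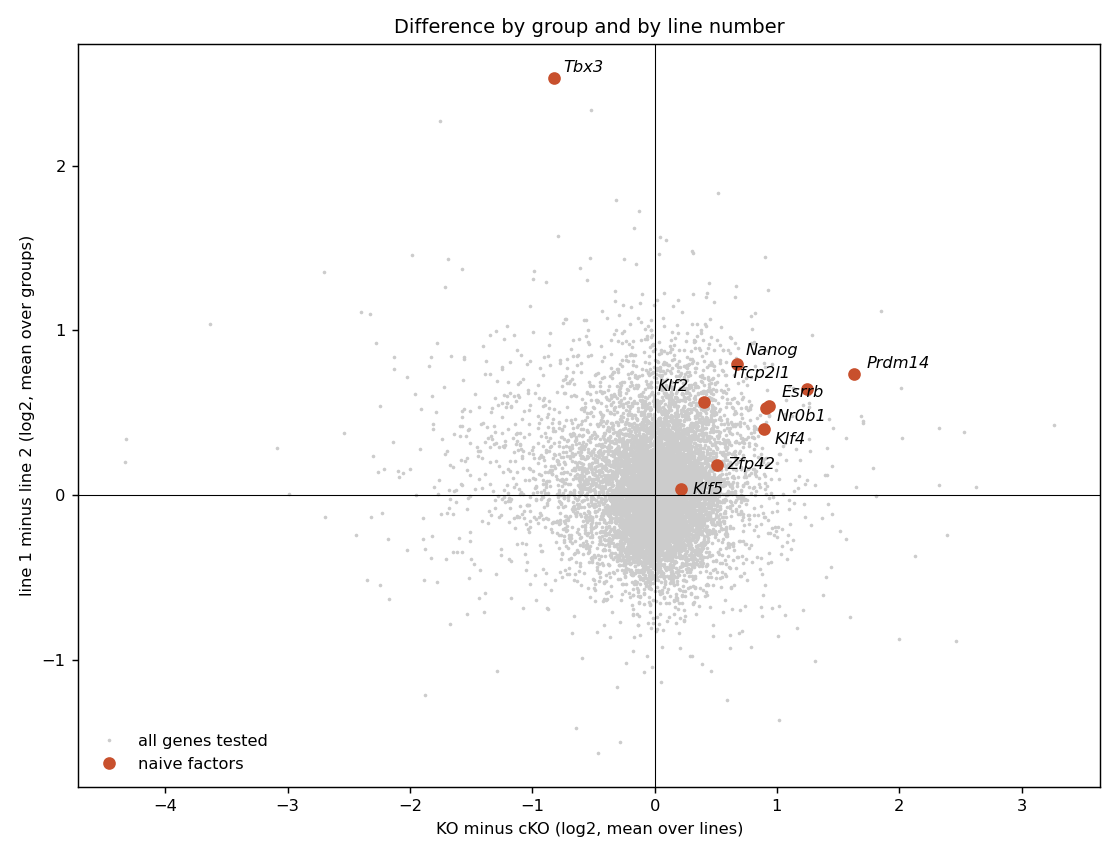
Each point is a gene, with the log2 difference KO minus cKO on the horizontal axis and line 1 minus line 2 on the vertical axis; red points are the 10 factors and grey points all 10916 genes tested. Tbx3 lies at the top edge at 2.53, and the other 9 lie above and to the right of the origin.

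Leaving out cKO line 1 necessarily raised the differences of the 9 higher genes, since cKO line 2 was the lowest array for each. Leaving out cKO line 2 necessarily lowered them. The values without it ran from 0.09 for Klf2 to 1.15 for Prdm14. All 9 kept their sign, which for the 7 without overlap was fixed in advance. Between KO line 2 and cKO line 1, the 7 genes without overlap were by that definition higher in KO. For these genes that was the smallest gap between the groups, except in Klf5, where KO line 1 lay 0.16 above cKO line 1. The log2 differences were 0.90 for Prdm14, 0.60 for Tfcp2l1, 0.50 for Klf4 and 0.39 for Esrrb. Those of Nr0b1, Zfp42 and Klf5 were 0.38, 0.33 and 0.18. Nanog (-0.12), Klf2 (-0.16) and Tbx3 (-3.36) were lower.

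**Figure D4:**
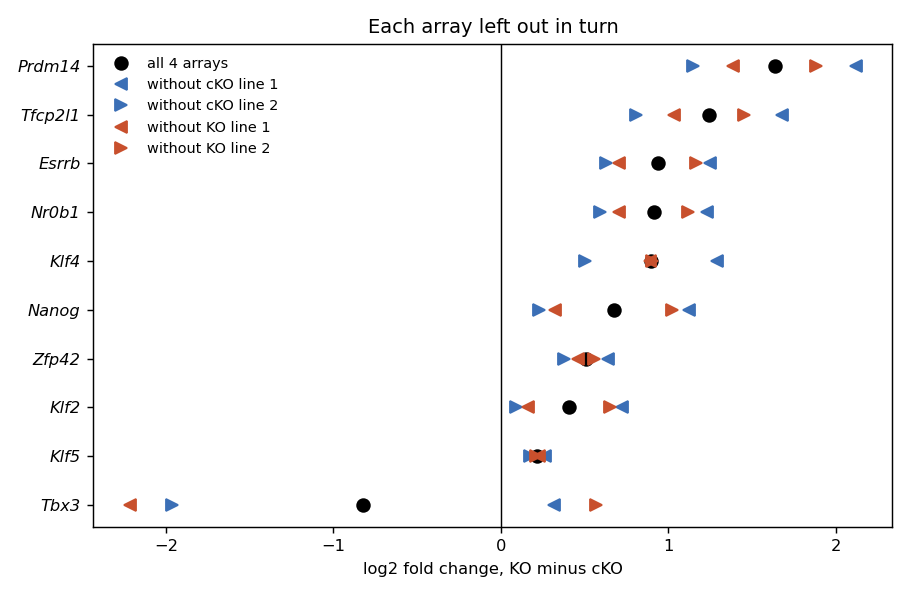
Log2 fold change of KO minus cKO for each factor with all 4 arrays (black circles) and with 1 array left out (triangles, blue for a cKO and red for a KO array). The 9 genes above Tbx3 stay to the right of 0 in every case, whereas Tbx3 runs from -2.22 to 0.57.

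Taken over all probe sets, 15 of the 21 were above the filter of the fit by probe set, a signal of 53.8. The other 6 ranged from 1.36 to 41.7 and belonged to Klf5 (1), Tbx3 (3) and Tfcp2l1 (2). Of the 15, 13 had a positive log2 fold change and 10 had groups apart with KO higher, where 20.8% of all probe sets tested did. Only the 2 Tbx3 probe sets were negative. None passed in limma at an adjusted p of 0.05, where 1.22% of probe sets did, and 8 were higher in KO at an unadjusted p under 0.05, where 4.88% of probe sets were. Without cKO line 1 there were 9 that passed, against 1.87% of all probe sets, and without KO line 2 there were 3, against 1.2%. None passed without cKO line 2 or without KO line 1, where 1.76% and 1.81% of all probe sets did.

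Genes outside the lists read here were ranked by how near their log2 profile over the 4 arrays lay to the mean profile of the 10. The nearest were 1700029P11Rik, Cobl, Id2, Cog7 and Hr, at root mean square distances of 0.02 to 0.06. Id2, an inhibitor of basic helix-loop-helix factors, read 1313 and 703 in cKO and 1751 and 1186 in KO. Among the 10, Nanog was nearest to that mean at 0.05 and Tbx3 farthest at 1.19. With 4 arrays many genes lie this near, and 112 genes were nearer to the mean than Esrrb.

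Other genes of the naive state, taken from a list of 14, went the same way with smaller values. Of 13 tested, 12 had a positive log2 fold change, where 51.4% of all genes did. KO lay above cKO without overlap in 5, where 21.4% of all genes did so. None of the 13 passed in limma, and their median was 0.40. The smallest p-values were those of Gbx2, a homeobox target of STAT3 (0.87, adjusted p = 0.0875), and Fbxo15 (0.50, adjusted p = 0.121). Gbx2 read 1058 and 1421 in cKO and 1995 and 2537 in KO, so that here line 2 was the higher. The 8 core pluripotency genes had a median of -0.05, and 1 of them fell, Lin28a (-0.66, limma adjusted p = 0.0346). The value was -0.71 without cKO line 1 and -0.62 without cKO line 2. The call was lost in limma with centring (adjusted p = 0.308), without a filter (adjusted p = 0.0591) and with its probe sets averaged (adjusted p = 0.231).

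Genes that act on the naive factors were read next. Among 15 tested genes of the LIF, Wnt and ERK pathways 2 rose and none fell. Socs3, the feedback inhibitor of STAT3, read 2455 and 2211 in cKO and 4948 and 5335 in KO (1.14, limma adjusted p = 0.0116). Lifr, the LIF receptor subunit, read 1318 and 1467 in cKO and 3061 and 2730 in KO (1.05, limma adjusted p = 0.0209), a call lost when arrays were centred on their median (adjusted p = 0.0602) or its probe sets averaged (0.75, adjusted p = 0.162). In both genes the lines within a group were close. Stat3 itself was not called. Of 10 tested genes whose loss delays exit from the naive state, none passed and 8 were positive, with a median of 0.09. Nprl2 (0.28, adjusted p = 0.541) and Tcf7l1, the repressor of several members (0.16, adjusted p = 0.711), had the smallest p-values.

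Genes known to be repressed by PRDM14 were read beside it, with its partner Cbfa2t2. Of 7 tested, 2 fell. Dnmt3a, a de novo DNA methyltransferase, read 3359 and 4761 in cKO and 897 and 1295 in KO (-1.89, limma adjusted p = 0.017), and its cofactor Dnmt3l read 5508 and 6685 in cKO and 1798 and 2545 in KO (-1.50, limma adjusted p = 0.0178). With 1 array left out Dnmt3a ran from -2.15 to -1.62 and Dnmt3l from -1.75 to -1.25. In these genes line 2 was the higher in both groups, the reverse of Prdm14. Dnmt3b was at -0.51 (adjusted p = 0.0788), while Fgfr2, also a PRDM14 target, was at 0.72 (adjusted p = 0.146) with KO above cKO.

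Of 8 tested primed epiblast genes, which mark the state after exit, 2 fell, 7 were negative and the median was -0.83. Sall2, a zinc finger gene, read 311 and 356 in cKO and 94.6 and 97.1 in KO (-1.75, limma adjusted p = 0.0185). With 1 array left out it ran from -1.84 to -1.65. Sox3 was at -1.34 (limma adjusted p = 0.0347), and at -1.22 without cKO line 1. Its call was lost in limma without a filter (adjusted p = 0.0916) and when its probe sets were averaged (adjusted p = 0.2). When limma was run without a trend of variance on signal, the calls of Socs3 (adjusted p = 0.0628) and Lifr (adjusted p = 0.0715) ended. So did those of Dnmt3a (adjusted p = 0.0675), Dnmt3l (adjusted p = 0.0724), Sox3 (adjusted p = 0.068) and Lin28a (adjusted p = 0.13). The markers Col5a1 (adjusted p = 0.0628), Thy1 (adjusted p = 0.0824) and Col4a1 (adjusted p = 0.119) lost theirs too, while Sall2 kept its call.

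**Figure D5:**
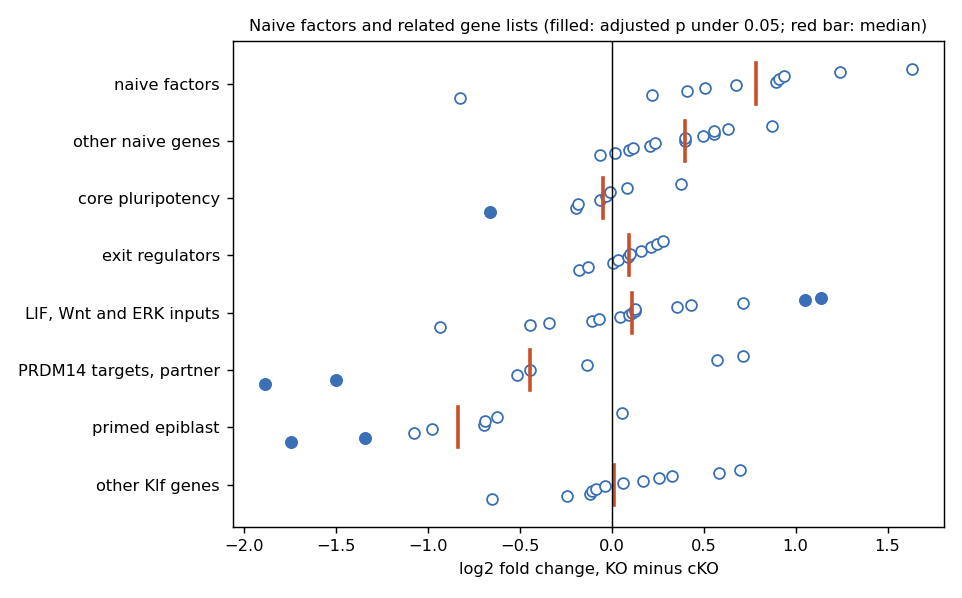
Log2 fold change of KO minus cKO for each tested gene of 8 lists, 1 point per gene, filled where limma gave an adjusted p under 0.05, with the median of each list as a red bar. The median is 0.78 for the naive factors, 0.40 for other naive genes and -0.83 for primed epiblast genes.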

How the data were processed

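The authors deposited 1 table of intensity values on a linear scale, which per the submitters' processing notes are MAS5 signals. Neither the version nor the settings of MAS5 are known here. Each array had a mean of 500.0 once the top and bottom 2% were trimmed, so the arrays had been scaled, and none was normalized further. Median signals were 76.6 and 64.4 in cKO and 81.6 and 64.9 in KO, so that line 1 was the higher in both groups. Gene names came from the platform annotation, updated through Entrez identifiers; 34945 of 45101 probe sets named 1 gene, 932 named several, 9160 named none and 64 were controls.

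The probe set of highest mean stood for a gene, and the lower 40% of 18193 genes (below 77.7) were left out. Values were taken as log2(signal + 4.79), the pseudocount being the 10th percentile, a scale that understates changes of dim genes. The fit of KO against cKO used limma 3.58.1 under R 4.3.3 (lmFit, eBayes with a variance trend, 2 residual degrees of freedom and 5.13 from the prior) and Benjamini-Hochberg adjustment over all genes. A second fit took every probe set. The procedure was tested on simulated data. Python 3.11.15 made summaries and plots.

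Members, lists and the rule for named genes were chosen with earlier results of these data known. The rule took the members, the 5 genes outside the lists nearest in profile, and any marker. From each other list it took up to 3 called genes or the 2 of smallest p. Stat3, Dnmt3b and Fgfr2 were named after their values were seen. Other pseudocounts for the rank of Tbx3 were also chosen after seeing the data.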

Additional observations from a re-analysis of the deposited data

How the results depend on the processing

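Of 137 values of the 10 genes under 14 alternatives, 135 kept the direction reported. Changes of the filter, the variance trend, the threshold or the block left each log2 fold change as it was, so its direction there was fixed in advance. Tbx3 reversed to 0.32 without cKO line 1 and to 0.57 without KO line 2, and ran from -2.22 to 0.57 over the arrays left out; the cause was not tested. No member passed with a pseudocount of 1 or of the 25th percentile, without a filter, with a filter on the lower 60% (which left 8 members), with quantile normalization, with the mean of probe sets (which left 9) or without the variance trend. With centring on the median 2 members and 1 member probe set passed, where 328 of all genes and 317 of 20967 probe sets did. At an adjusted p under 0.1 again 2 and 1 passed, where 428 of all genes and 462 probe sets did. Leaving out 1 array gave 0 to 7 members, 0 to 9 member probe sets, a median from 0.44 to 1.18 and 228 to 432 of all genes. The median of the members stayed within 0.41, the SD between replicates, in these settings. All genes called were 240, and 147 without a filter, 154 with the stricter filter, 129 with the mean of probe sets, 28 without the variance trend and 428 at an adjusted p under 0.1; the cause was not tested beyond the number of genes or the threshold. With the line number as a replicate block, 8 members and 11 member probe sets passed in limma, the exceptions among the members being Klf5 and Tbx3. In that fit 1048 of all genes and 1682 of 20967 probe sets passed. The labels do not pair the lines, though the difference of line 1 and line 2 in cKO correlated with that in KO across 10916 genes (r = 0.52; genes are not independent replicates). The number of arrays limits precision, and Prdm14 and Tbx3 came within reach of background on at least 1 array.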
